A study of Mus musculus with 3 samples.

Results

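Integrins are the adhesion receptors with which white cells and platelets hold on to vessel walls, matrix and clots, and 10 of their subunit genes were followed here in mouse acute myeloid leukaemia cells. The genes were Itgam, Itgb2, Itgal, Itgax, Itga4, Itgb1, Itgb7, Itgav, Itgb3 and Itga2b. Their probes were found by gene name among the spots that are not controls, which gave 18 probes for 10 of 34827 gene names on the array. The cells, called HoxA9-Meis1 AML cells, came from whole bone marrow of C57Bl/6 background and were kept in SFEM medium. The 3 cultures were untreated cells, cells given 3.4 µM Pyrydopyrazine A2, and cells given retinoic acid (RA) and a 1α-hydroxy vitamin D3 (D3V) at 10 µM each, all for 24 h. A single one-colour Agilent array stands for each condition, so the differences below have no replicate check and none was tested. The question put by the design is how either treatment alters transcript levels relative to cells left untreated.

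It is not certain which treated array received which treatment. By rank over all spots, the scanner file labelled A2 equalled the RA plus D3V column of the deposited value table (Spearman 1), and the scanner file labelled RA plus D3V equalled the column labelled A2 (Spearman 1). The arrays are named here by the labels of their scanner files, and a direction belongs to the array so labelled rather than to a compound. That table's control values were those of no scanner file (Spearman 0.936 with the untreated array) and give a second set of untreated values. Differences said below to use that control also take their treated values from the table, with its treated columns matched by rank. Among leukaemia markers, Hoxa9 was well above background on all 3 arrays, and Meis1, read by 1 probe, was on none. The other 10 of the 12 markers of these cells, among them the pan-leukocyte gene Ptprc and the myeloid transcription factor gene Spi1, were well above background on every array. Levels below are log2 of the processed signal minus log2 of the array's 75th percentile, so 0 marks that percentile. A level of 1 probe cannot be set against that of another, and a difference of at least 1 on this scale, 2-fold, was counted as higher or lower.

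An integrin is a heterodimer of an alpha and a beta subunit, and the pairing decides what it binds. Itgb2 (beta-2, CD18) pairs with Itgal (CD11a, making LFA-1), Itgam (CD11b, making Mac-1) and Itgax (CD11c), and these carry leukocytes across endothelium and serve uptake of complement-coated particles. Itga4 pairs with Itgb1 or Itgb7 to hold progenitors and lymphocytes to VCAM-1, fibronectin and MAdCAM-1. Itgb3 pairs with Itga2b to form the platelet fibrinogen receptor and with Itgav to form the vitronectin receptor found on macrophages and osteoclasts. CD11b and CD11c are used as surface signs of myeloid maturation, and CD41, the product of Itga2b, as one of the megakaryocyte lineage.

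The probes behind the largest differences, and those whose probes did not behave alike, begin as follows. The first 30 of the 60 bases are given 5′ to 3′, with alternating runs of at least 8 bases of C and A or of G and T in capitals.
Itgam probe 1 (chr7:135212140-135212199, mm9, + strand): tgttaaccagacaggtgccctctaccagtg
Itgam probe 2 (chr7:135260275-135260334, + strand): aagttcacaatcctgtaccactcattgtgg
Itgam probe 3 (chr7:135261755-135261814, + strand): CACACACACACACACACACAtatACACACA
Itgb2 (chr10:77027978-77028037, + strand): aaagctagagcatgagttatcataatcaag
Itgal probe 1 (chr7:134477160-134477219, + strand): acttgagagccctggctctgaccagcttca
Itgal probe 2 (chr7:134477064-134477123, + strand): tggggaagagaccaaagatatgggctgtct
Itgb3 probe 1 (chr11:104531672-104531731, + strand): ccacagcaacatcagagtctttgtccattt
Itgb3 probe 2 (chr11:104528625-104528684, + strand): acttaTGTGTGTGacgagtgtggggaaatg
The files assign these probes to RefSeq transcripts of the genes, hence to exonic sequence, without saying whether it is coding. The runs matter because probes with a G and T run of at least 8 bases were lower on both treated arrays, with a median log2 difference of -1.04 over 291 measured probes on the A2 array and -0.96 on the RA plus D3V array. The median of 143 measured probes with a C and A run was 0.04 on the A2 array, and that of 140 such probes was 0.19 on the RA plus D3V array. Of the 143, 21 were at least 2-fold higher and 7 lower, and of the 140, 23 were higher and 11 lower. Over all genes 7.92% were higher and 6.47% lower on the A2 array, and 7.82% and 5.04% on the RA plus D3V array.

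Itgam was much higher on both treated arrays than on the untreated array, by nearly the same amount on each. Its brightest probe, probe 3, had a level of 2.08 on the untreated array, 4.39 on the RA plus D3V array and 4.45 on the A2 array. In raw processed signal these were 1513, 6100 and 5999. The log2 difference from untreated was 2.37 on the A2 array and 2.31 on the RA plus D3V array, and the treated arrays lay 0.06 apart. Probes 2 and 3 are assigned to one RefSeq transcript of Itgam and probe 1 to another, and all placed the treated arrays above untreated. Probe 2, also at the 3′ side of the gene, read 1.42, 3.67 and 3.55 on the untreated, the RA plus D3V and the A2 array, so its differences were 2.25 and 2.13. Probe 1, far upstream of it, read -2.98, -0.27 and -0.63, with differences of 2.71 and 2.35. Thus 3 of 3 probes, only 1 of them with a C and A run, placed Itgam more than 4-fold above untreated on both treated arrays. Against the value table's control the 3 probes gave 1.56 to 2.26 on the A2 array and 1.91 to 2.46 on the RA plus D3V array. In RNA of a whole culture, more cells of a kind and more RNA per cell cannot be told apart.

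Itgb2, the partner that Itgam needs to reach the surface, was higher on the A2 array only. Its single probe had a level of 3.78 on the untreated array, 4.43 on the RA plus D3V array and 5.56 on the A2 array. The differences from untreated were 1.78 (3.43-fold) and 0.66 (1.57-fold), and the treated arrays differed by 1.13. With the value table's control they were 1.97 and 0.95, so the smaller difference came close to the 2-fold line. Both values keep the order untreated, RA plus D3V, A2.

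Itgal went the other way on the A2 array. Probe 1 had a level of 2.66 on the untreated array, 2.50 on the RA plus D3V array and 1.58 on the A2 array, and probe 2 had 2.23, 2.19 and 1.29. The differences on the A2 array were -1.08 and -0.93, which lie on either side of the 2-fold line, and those on the RA plus D3V array were -0.17 and -0.04. With the value table's control the A2 values of both probes were within 2-fold, at -0.96 and -0.92. Probe 3, designed on the clone transcript AK154115 (chr7:134474711-134474767), was not well above background on the untreated array and reached only -3.60 and -3.80 on the RA plus D3V and A2 arrays. LFA-1 is also the main integrin of T cells. On the list of T and NK cell markers 3 of 5 measured genes were at least 2-fold lower on the A2 array (Cd3d, Cd2 and Gzma), where 6.47% of all genes were. Cd3g was lower on that array as a bound, by at least 2.74-fold. On the RA plus D3V array 2 of 4 were lower (Cd3d, -1.55, and Cd2, -1.89), against 5.04% of all genes, and Gzma and Cd3g were lower as bounds. Cd3e and Cd4 lay within 2-fold on both arrays. The list's summed level, in which Cd3e and Cd4 weighed most, was 9.45 on the untreated array, 7.61 on the RA plus D3V array and 7.63 on the A2 array. Cd8a, Klrb1c and Ncr1 of that list were not well above background on any array. The part of such cells in the Itgal value was not tested.

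Itgax stayed within 2-fold. Its probe (chr7:135294052-135294111) had a level of -0.72 on the untreated array, -0.56 on the RA plus D3V array and 0.06 on the A2 array, which gives differences of 0.77 on the A2 array and 0.16 on the RA plus D3V array. Of the beta-2 family, then, the CD11b gene stood more than 4-fold above untreated on both arrays while CD11a and CD11c did not. Of 7 dendritic cell markers 5 were well above background on every array, namely Siglech, H2-Ab1, H2-Aa, Cd74 and Flt3, and Zbtb46 and Xcr1 were on none. Their summed level was 177 on the untreated array, 245 on the RA plus D3V array and 205 on the A2 array. That sum adds linear levels, and Siglech and H2-Ab1 weighed most in it on every array. The median log2 difference of the 5 measured genes was -0.55 on the A2 array, with 2 of 5 above untreated. On the RA plus D3V array it was 0.01, with 3 of 5 above untreated. Flt3 was lower on both treated arrays (-2.28 on A2 and -1.80 on RA plus D3V) and Cd74 higher on the RA plus D3V array (1.39). The part of such cells in the Itgax value was not tested.

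The very late antigen genes stayed within 2-fold of untreated on the probes used. Itga4 (chr2:79173193-79173252) had levels of 2.33, 2.59 and 2.66 on the untreated, the RA plus D3V and the A2 array. Its second probe, whose position spans 1131 bases and so crosses an intron (chr2:79153985-79155115), was not well above background on the untreated array and had levels of -2.71 and -3.13 on the RA plus D3V and A2 arrays. These were 2.72-fold and 2.04-fold above the probe's own untreated signal, which is a reading near background. Against the value table's control the same probe gave 0.63 and 0.42, so these ratios depend on which source of values is used.

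Itgb1, the common beta chain of matrix-binding integrins, was read by 2 probes that differed a little. Its brighter probe spans 5896 bases of the genome (chr8:131250081-131255976) and had levels of 2.55, 2.20 and 2.88 on the untreated, the RA plus D3V and the A2 array. The other probe (chr8:131246349-131246408) had 0.37, 0.44 and 0.50, so the difference of 0.67 between the treated arrays on the first was 0.05 on the second. Itgb7, the gut-homing beta chain, had levels of 5.36, 4.91 and 5.83 (chr15:102046450-102046509, - strand). It was 0.47 above untreated on the A2 array and 0.46 below it on the RA plus D3V array. The treated arrays thus stood 0.92 apart, just short of 2-fold.

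Itgb3 showed the largest difference of all members, and it appeared for the RA plus D3V array alone. Probe 1 had a level of -1.54 on the untreated array, 1.32 on the RA plus D3V array and -1.81 on the A2 array. In raw processed signal these were 123, 728 and 78.3. The differences were 2.86 (7.27-fold) on the RA plus D3V array and -0.27 on the A2 array, and the treated arrays differed by 3.13 on the log2 scale (8.77-fold). With the value table's control the differences were 2.82 and -0.25. Probe 2, which holds a G and T run of 8 bases and lies upstream in the same transcript, was at background on all 3 arrays, so the Itgb3 value rests on 1 probe.

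Of the alpha partners of Itgb3, Itgav did not follow it and Itga2b could not be measured. Itgav was read by 2 probes (chr2:83646133-83646192 and chr2:83643905-83643964), which had levels of -1.70 and -2.23 on the untreated array, -1.13 and -1.98 on the RA plus D3V array and -1.28 and -1.61 on the A2 array. Its differences ran from 0.24 to 0.61 over both probes and arrays, and with the value table's control the brighter probe gave -0.12 and -0.03. Itga2b was at background on all 3 arrays. Its probe crosses an intron (chr11:102319453-102319661, - strand) and had levels of -3.88, -4.94 and -6.17 on the untreated, the RA plus D3V and the A2 array, which have no order below background.

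Genes known from platelets and their precursors were measured beside Itgb3. Of 13 such markers the platelet chemokine genes Pf4 and Ppbp, the receptor gene Treml1 and the von Willebrand factor gene Vwf were higher on both treated arrays, Ppbp and Treml1 as bounds. Selp was higher on the A2 array, by 1.21. The receptor gene Clec1b was at least 50.6-fold higher there on its brightest probe, also a bound, while its 1 probe well above background on all 3 arrays differed by 0.91. The levels of Pf4 were -1.39, 4.28 and 3.11 on the untreated, the RA plus D3V and the A2 array. Gp1ba, Gp1bb, Gp5, Gp6 and Gp9, which encode the glycoproteins of the platelet surface, were not well above background on any array. The list's summed level, in units of the 75th percentile, was 1.15 on the untreated array, 23.6 on the RA plus D3V array and 22.6 on the A2 array. Pf4 and Ppbp weighed most in that sum on the treated arrays. Against untreated 3 of 4 measured markers were at least 2-fold higher on the A2 array (7.92% of all genes). On the RA plus D3V array 2 of 4 were (7.82% of all genes). The part of such cells in the Itgb3 value was not tested.

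**Figure D1:**
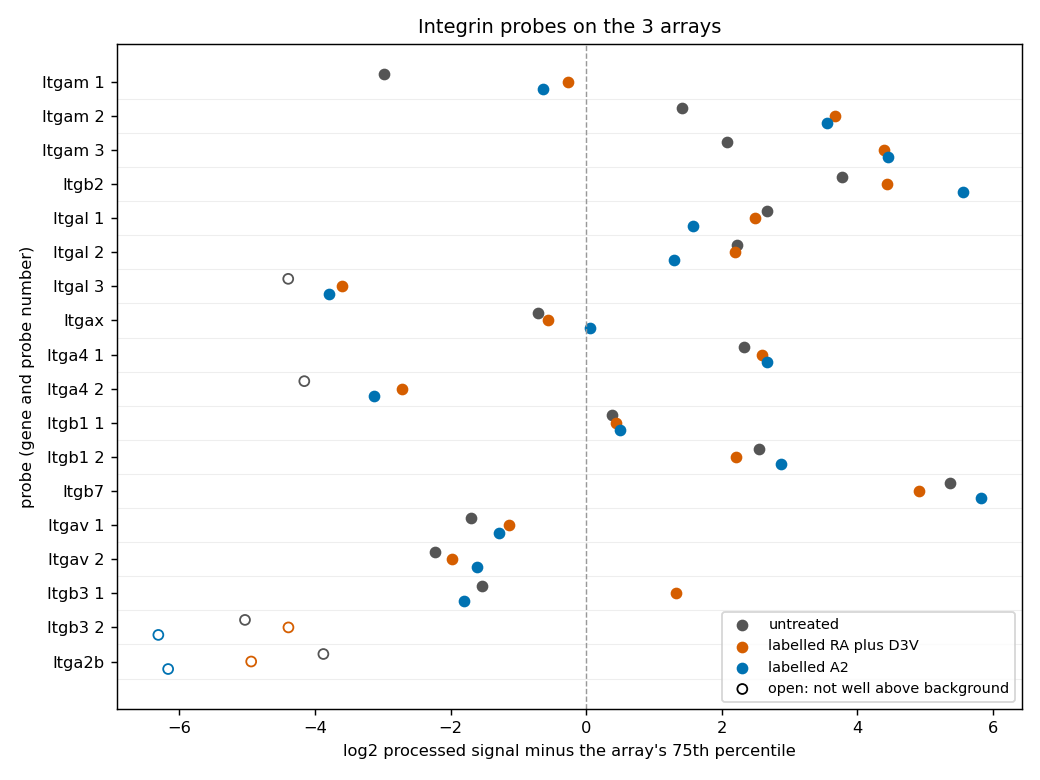
Level of each of the 18 integrin probes (rows) on the 3 arrays, as log2 processed signal minus the array's 75th percentile. Filled points are well above background and open points are not. Only the Itgam probes and probe 1 of Itgb3 have a gap of more than 2 between an array and the untreated one among filled points.

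Over the family, 9 of 10 members could be measured in each comparison. On the A2 array 2 of 9 members, Itgam and Itgb2, were at least 2-fold higher than untreated, where 7.92% of 17291 genes were, and 1, Itgal, was at least 2-fold lower, where 6.47% of genes were. The members' median log2 difference was 0.42, against -0.03 over all genes. On the RA plus D3V array 2 of 9, Itgam and Itgb3, were at least 2-fold higher (7.82% of 17290 genes) and 0 lower (5.04% of genes), with a median of 0.27 against -0.03. Between the treated arrays 1 of 9, Itgb2, was at least 2-fold higher on the A2 array (3.78% of 17640 genes) and 1, Itgb3, lower (4.05% of genes). The median there was 0.07, against -0.02 over all genes. With 9 genes these shares are descriptions only, and most members lay within 2-fold.

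No spread between replicate cultures can be had from these arrays. Spots that repeat a probe on the same array varied with a median SD of 0.0606 to 0.0703 (log2). Using the value table, control and treated values alike, in place of the scanner files changed the difference of a gene. The SD of that change was 0.281 on the A2 array and 0.303 on the RA plus D3V array. The difference of Itgav changed by 0.53 and 0.59, the most of any member. That SD is over genes and over sources processed in different ways, and it does not stand in for that spread.

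**Figure D2:**
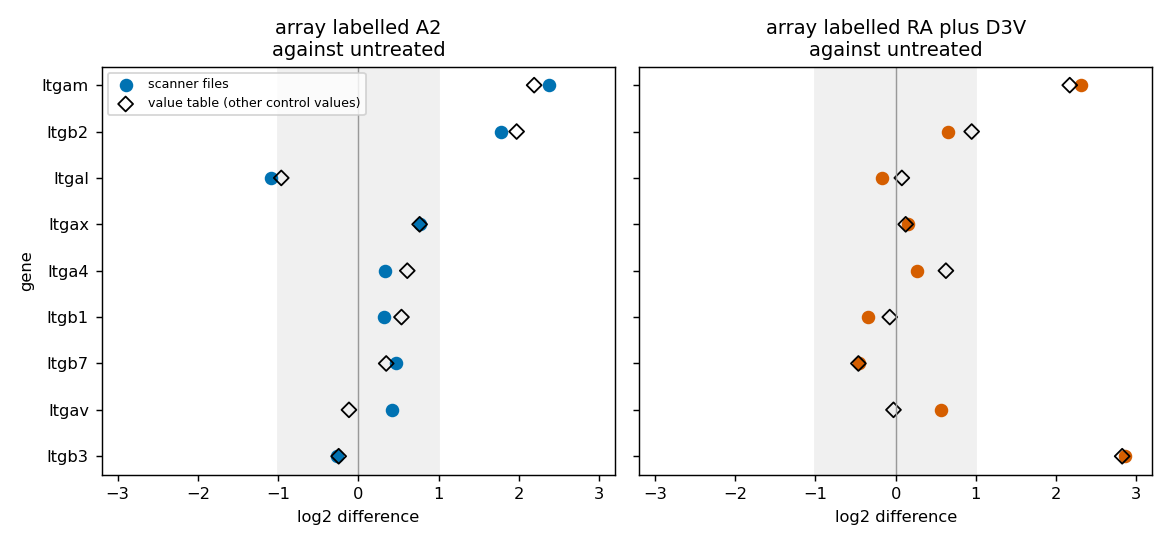
Log2 difference from untreated of the 9 measured integrin genes on each treated array (probe with the highest mean signal). Coloured circles use the scanner files, open diamonds the value table with its own control and with treated columns matched by rank, and the grey band marks less than 2-fold. Itgam (both arrays), Itgb2 (A2 array) and Itgb3 (RA plus D3V array) lie above the band with both sources, and Itgal leaves it only with the scanner files.

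**Figure D3:**
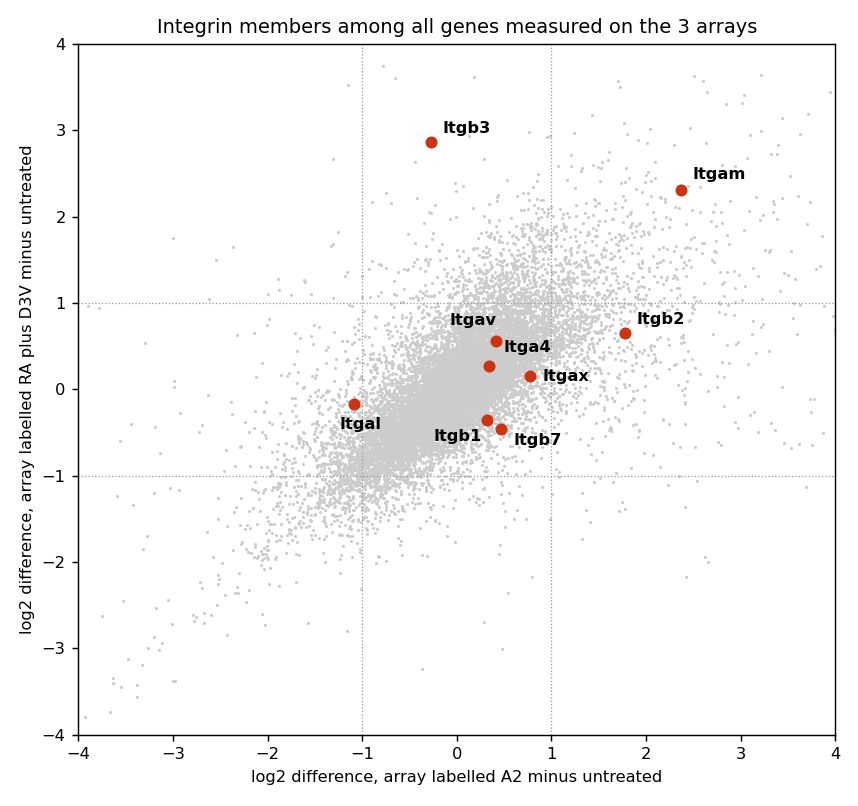
Log2 difference from untreated of 17015 genes well above background on all 3 arrays (grey), with the array labelled A2 on the x axis, the array labelled RA plus D3V on the y axis, and the 9 measured integrin genes in red. Dotted lines mark 2-fold, and 68 genes lie outside the axes. Itgam lies high on both axes, Itgb3 on the y axis and Itgb2 on the x axis.

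The gene whose pair of differences lay nearest to that of Itgam, among 11569 genes with a RefSeq symbol measured on all 3 arrays, was the actin-severing protein gelsolin, Gsn (2.45 on the A2 array and 2.36 on the RA plus D3V array). The next were Gcnt2 (2.57 and 2.35), Arhgap22 (2.21 and 2.20) and Fabp3 (2.35 and 2.11), and 7 genes lay within 0.25 of it. Nearest to Itgb2 were the interferon regulatory factor gene Irf7 (1.74 and 0.61), Pard3, Lhfpl2, Gnb5 and Sc5d, with 26 genes within 0.25. The distance is over 2 differences that share the untreated array.

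The other integrin subunits were few. Of 17 further subunit genes, 8 had no probe well above background on any array. These were Itga2, Itga8, Itga9, Itga11, Itgad, Itgae, Itgb6 and Itgb8. On the A2 array 2 of 8 measured genes were at least 2-fold lower (6.47% of all genes) and 0 higher (7.92%), with a median of -0.09. Itga1, the collagen receptor chain that pairs with Itgb1, had levels of 1.98, 2.57 and 0.32 on the untreated, the RA plus D3V and the A2 array, a difference of -1.66 on the A2 array with -1.97 on its second probe. The laminin receptor chain Itga7 differed by -1.09. On the RA plus D3V array 1 of 7 was at least 2-fold higher (7.82% of all genes) and 0 were lower (5.04%), with a median of 0.01. The higher gene was Itgb5 (1.18), the beta chain of another vitronectin receptor with Itgav. Itga5, Itga6, Itga10 and Itgb2l lay within 2-fold on both. Itgb4 was within 2-fold on the A2 array (0.14) and Itga3 was well above background on the RA plus D3V array only.

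Genes that switch integrins on or link them to actin were mostly expressed, 32 of 37 being measured in each comparison. On the A2 array their median was 0.34, against -0.03 over all genes. There 0 of 32 reached 2-fold lower (6.47% of all genes) and 4 of 32 reached 2-fold higher (7.92%). Those were the adaptor gene Fyb (1.39, with 1.02 on its second probe), Rasgrp2 (1.31, with 1.27), the gene of the exchange factor that loads Rap1 in platelets and neutrophils, the GTPase gene Rap1b (1.16) and the Src-family kinase gene Fgr (1.00, or 0.86 with the value table's control, which is within 2-fold). Rasgrp2 and Rap1b, which act one after the other, differed by -0.04 and -0.18 on the RA plus D3V array and lay 1.35 and 1.34 apart between the treated arrays. Fermt3, which encodes the blood-cell kindlin, had 0.97 and 0.78 on the A2 and RA plus D3V arrays (1.17 and 1.05 with the value table's control), and talin, Tln1, 0.10 and 0.32 on its brighter probe. The dimmer Tln1 probe, well above background on all 3 arrays, gave 0.75 and 1.26, so the probes of Tln1 did not behave alike. On the RA plus D3V array 3 of 32 were at least 2-fold higher (7.82% of all genes) and 1 was lower (5.04%), with a median of 0.01. The higher genes were Fyb (from a level of 2.03 to 4.03, with a difference of 1.90 on its second probe), Fgr (1.17) and the tetraspanin gene Cd81 (1.01). The lower gene was the adaptor gene Skap1 (-1.17). The inhibitors Itgb1bp1 and Sharpin stayed within 2-fold.

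Transcripts for ligands of these receptors were also measured. On the A2 array 3 of 16 reached 2-fold higher (7.92% of all genes) and 2 reached 2-fold lower (6.47%), with a median of 0.08. On the RA plus D3V array 5 of 15 were higher (7.82%) and 1 lower (5.04%), with a median of 0.69. Osteopontin, Spp1, a ligand of Itgav and Itga4 integrins, was higher by 4.68 and 1.55 on the A2 and RA plus D3V arrays. Thrombospondin, Thbs1 (2.32 and 1.66), and fibronectin, Fn1 (2.33 and 1.17), were higher on both, and Thy1 (-1.95 and -1.39) was lower on both. Vcam1, the ligand of Itga4 with Itgb1, differed by -1.24 on the A2 array, or by -0.99 and so within 2-fold with the value table's control, and by -0.19 on the RA plus D3V array. Complement C3, whose fragment binds Mac-1, was higher on the RA plus D3V array only (1.19, with 1.11 on its second probe), as was Madcam1 (1.64), which gave 0.85 with the value table's control. Icam1 and Icam2, the ligands of LFA-1, lay within 2-fold on both arrays.

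Among other adhesion receptors, P-selectin, Selp (1.21, or 0.92 with the value table's control), was higher on the A2 array, and the hyaluronan receptor Cd44 was lower (-1.90, with -1.28 and -1.21 on the other 2 probes measured on both arrays). On the RA plus D3V array Selp (0.42) and Cd44 (-0.72) lay within 2-fold.

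**Figure D4:**
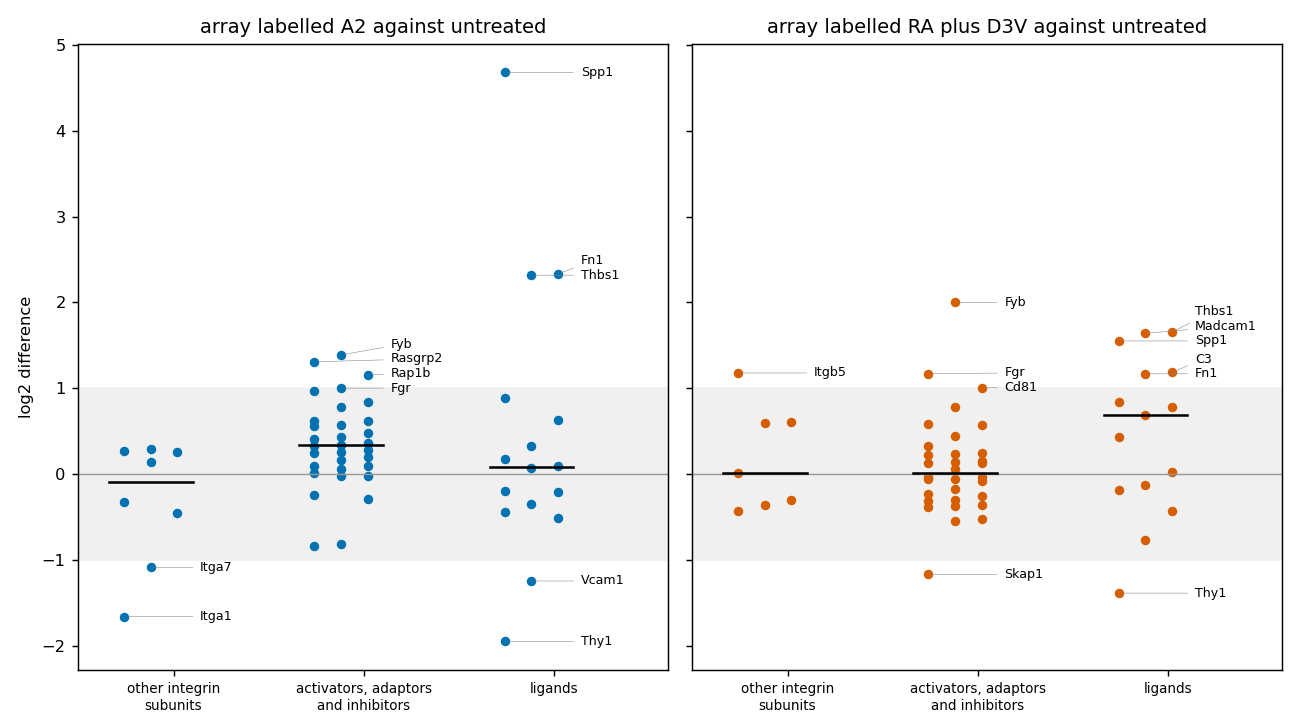
Log2 difference from untreated of the measured genes of 3 lists around the integrins, on each treated array. Black bars are list medians, the grey band marks less than 2-fold and genes outside it are named. Rasgrp2 and Rap1b are above the band on the A2 array alone, Itgb5 and Cd81 on the RA plus D3V array alone.

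Markers of monocytes and macrophages, cells rich in Itgam and Itgb2, were higher on both treated arrays as well. The list's summed level was 146 on the untreated array, 316 on the RA plus D3V array and 315 on the A2 array, with 8 of 10 genes detected above background in untreated cells and 10 on the other arrays. At least 2-fold higher were 5 of 8 measured genes on the A2 array (7.92% of all genes) and 6 of 8 on the RA plus D3V array (7.82%). On each array 1 gene, Cx3cr1, was at least 2-fold lower (6.47% and 5.04% of all genes). The macrophage gene Adgre1 differed by 1.13 and 1.74. Whether the Itgam difference belongs to a share of such cells was not tested. Spi1, which encodes PU.1, differed by -0.13 and -0.38.

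The leukaemia markers differed between the arrays too. Their summed level was 1476 on the untreated array, 1132 on the RA plus D3V array and 826 on the A2 array. That sum adds linear levels, and on the untreated array Mpo, at a level of 9.39, weighed most in it. On the A2 array 2 of 11 measured genes were at least 2-fold higher (7.92% of all genes) and 2 lower (6.47%). The median there was -0.17. On the RA plus D3V array 0 of 11 were higher (7.82%) and 1 was lower (5.04%). The median there was 0.19, with 7 of 11 above untreated. Mpo, the granule peroxidase gene, was lower on both treated arrays (-2.22 on A2 and -1.57 on RA plus D3V). On the A2 array the progenitor gene Cd34 was lower (-1.30) and the stem cell factor receptor gene Kit (a level of 1.90, against 0.20 on the untreated array) and Hoxa9 (a difference of 1.19) were higher, and on the RA plus D3V array these 3 lay within 2-fold. The part of these differences in the integrin values was not tested.

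The promoter table of RefSeq (build GRCm38.p6) held 7 of the 10 members; Itgb2, Itgal and Itgb3 were not matched. PU.1 is known, from work in human cells, to act at the CD11b promoter, so the Itgam window is shown, 250 bases before to 50 after the start site on the + strand (chr7:128062390-128062689), with matches to GAGGAA or its reverse complement TTCCTC in capitals.
Itgam promoter: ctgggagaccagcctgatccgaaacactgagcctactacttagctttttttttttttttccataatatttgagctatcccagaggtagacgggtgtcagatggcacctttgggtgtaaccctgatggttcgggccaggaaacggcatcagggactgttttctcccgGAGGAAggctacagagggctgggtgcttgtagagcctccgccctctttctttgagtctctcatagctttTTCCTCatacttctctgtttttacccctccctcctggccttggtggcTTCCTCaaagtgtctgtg
There were 3 such matches, beginning at -84 and -15 before and 32 after the start. The letters were present on either strand in 5 of the 7 member windows and in 28.3% of 32851 windows in the table, and among members they also occurred in those of Itga2b, Itgav, Itgb1 and Itgb7, none of which was measured as 2-fold higher. The RUNX letters TGTGGT were in the windows of Itga4 and Itgax (16.8% of all windows) and the GATA letters AGATAA in that of Itgax (11.2%). The nuclear receptor half-site AGGTCA (16.3%) and TGATTTAT, bound by HOXA9 with MEIS1 (0.977%), were in 0 of 7. These are matches of letters, not shown to be binding sites.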

How the data were processed

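Total RNA (50 ng per sample, labelled with Cy3) was hybridized to 1 array per condition, per the labels. Per the file headers, the deposited intensity was made with Agilent Feature Extraction 11.5.1.1: the processed signal is corrected for background and spatial trend within the array and is not scaled between arrays. Per the file headers, the deposited flags, set to 0 or 1 by the feature extraction, say whether a spot was well above background, saturated or not uniform. Probe positions are in mm9. How the deposited value table, an intensity on a linear scale, was made is not given in the sources used here; after sorting, 99.9% of values matched across its 3 columns to within 0.01%, as after quantile normalization.

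Control spots and 24 uneven probes were left out, which left 55657 probes; no member probe was uneven or saturated. Of 59305 spots 46.0% to 46.8% were well above background on each array. Log2 signal was scaled to the 75th percentile, spots of a probe were averaged, and a gene took its probe with the highest mean log2 signal. A gene was measured when well above background on both arrays; otherwise a bound was computed against the larger of the probe's own signal and the lowest signal well above background. No test was possible. Of 18 member probes 17 had an accession in the RefSeq table, and older symbols of listed genes were matched through it. All members and all probes are named, and of each other list the members at least 2-fold apart, up to 3 highest and 3 lowest; Pf4, Tln1, Fermt3, Icam1, Icam2, Itgb1bp1, Sharpin, Adgre1, Cx3cr1 and named markers within 2-fold were picked with their values in view. Some genes that this rule takes are not reported here. The members and lists were chosen with earlier results of these data known. The steps were tested on simulated data. Alternatives were normexp (limma 3.58.1 in R 4.3.3, offset 50), other scalings and filters, the median over probes and the value table.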

Additional observations from a re-analysis of the deposited data

How the results depend on the processing

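With 1 array per condition the number of arrays limits every value, and the spread between cultures is unknown. No paired analysis was possible because each condition has a single array. With the other scalings and filters, normexp, the median over probes and the value table matched by rank, Itgam stayed between 2.19 and 2.39 on the A2 array and 2.17 and 2.34 on the RA plus D3V array, Itgb2 between 1.71 and 1.97 on the A2 array, and Itgb3 between 2.35 (normexp) and 2.89 on the RA plus D3V array. Itgal on the A2 array ran from -1.08 to -0.96. Without a filter on dim probes, Itga2b, below background everywhere, raised the number of members at least 2-fold lower to 2 on the A2 array, 1 on the RA plus D3V array and 2 on the A2 array against the RA plus D3V array. The last number was also 2 with quantile normalization and with the value table matched by rank, since Itgal joined Itgb3, and with the table so matched the number of members 2-fold lower on the A2 array was 0.

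Taking the value table with its columns as labelled exchanges the treated arrays. Then 0 members were 2-fold lower on the array labelled A2 and the median there was 0.12, Itgal was 0.0764 on it, Itgb3 on the RA plus D3V array was -0.25, and between the treated arrays 2 members were higher on the array labelled A2, with Itgb3 at 3.07 and Itgb2 at -1.03. Over all genes normexp gave 951 higher and 721 lower on the A2 array (1370 and 1119 as reported), 746 and 531 on the RA plus D3V array (1352 and 872), and 490 and 333 between them (667 and 714), so that 59.5% rather than 48.3% of these calls were higher. Without the filter these counts were 3747 and 2651, 4479 and 2042, and 1787 and 2945.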
